A study of Homo sapiens with 4 samples.

Results

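The canonical histone genes of the HIST1, HIST2, HIST3 and HIST4 clusters were followed in human embryonic stem cells and in blastoids grown from them. Every row of the 4 deposited tables whose symbol starts with HIST1H, HIST2H, HIST3H or HIST4H was taken, which gave 64 genes of 23364. They encode 6 H1, 16 H2A, 17 H2B, 12 H3 and 13 H4 histones, and 59 of them were listed in all 4 tables. A member missing from a table was given 0 UMIs there (a UMI, or unique molecular identifier, marks 1 captured RNA molecule). All 64 matched a protein-coding gene of GENCODE 29 on GRCh38: 52 HIST1 members lie on chromosome 6 between 25726132 and 27893843, 9 HIST2 and 2 HIST3 members on chromosome 1, and HIST4H4 on chromosome 12.

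The stem cells were the established line KhES1, kept in mTeSR-1 medium (2 libraries, hESC 1 and hESC 2). The blastoids, aggregates of the same line that model the blastocyst, had been embedded in hydrogel and fed with iBlastoid medium (2 libraries, blastoid 3 and blastoid 4). All 4 sample titles carry day 0, while the names of the blastoid tables carry day 9. The labels name 1 line and do not say that the libraries of a group came from separate cultures. So p-values cannot measure the spread between cultures. Between groups they measure only the spread between these libraries. Where a library gave several sums of cells, they measure how far the differences between sums vary among these libraries. In every fit edgeR also borrows the spread of other genes. RNA was captured by its poly(A) tail with a droplet-based 3′ kit (Chromium 3′ v3.1).

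Most canonical histone genes are switched on when a cell replicates its DNA, because new chromatin needs new histones. H2A, H2B, H3 and H4 form the core around which DNA is wound, and H1 binds the linker DNA between cores. Their mRNAs normally end in a conserved stem-loop bound by SLBP, the stem-loop binding protein, instead of a poly(A) tail. Some members also make polyadenylated mRNA that reads past the loop. A poly(A) capture therefore sees polyadenylated or internally primed molecules, and the values below are levels of those and not of all histone mRNA.

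The stem-loop was looked for in the annotated transcripts of GENCODE 29 as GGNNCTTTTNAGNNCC on the sense strand. It was present in 27 members, in 5 forms. The windows below are shown because they mark where the normal mRNA ends, with the 16 bases of the loop, to which the coordinates refer, in capitals. The first 3 hold the commonest form (14 members), which HIST3H2A and HIST2H2BE, whose levels followed the cycling state differently from most members, share with HIST1H2BN.
HIST1H2BN, chr6:27839090-27839105, plus strand: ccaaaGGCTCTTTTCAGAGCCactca
HIST3H2A, chr1:228457369-228457384, minus strand: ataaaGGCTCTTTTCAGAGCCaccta
HIST2H2BE, chr1:149886188-149886203, minus strand: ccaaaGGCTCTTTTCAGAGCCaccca
HIST1H4H, chr6:26285131-26285146, minus strand: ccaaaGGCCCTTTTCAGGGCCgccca
HIST1H3G, chr6:26270923-26270938, minus strand: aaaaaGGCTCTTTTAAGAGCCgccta
HIST2H4B, chr1:149860769-149860784, minus strand: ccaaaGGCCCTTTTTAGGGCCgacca
HIST1H2AG, chr6:27133515-27133530, plus strand: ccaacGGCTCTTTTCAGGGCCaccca

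In 20 of the 27 the longest model ran at least 100 bases past the loop, by 1917 bases in HIST3H2BB and 1729 in HIST2H2BE. Another 31 members, among them HIST1H1D and HIST1H3B, had models that stop at the end of the coding part. The other 6, HIST1H4C among them, had untranslated bases but no match. Reads that fall past a short model may not have been counted, and which annotation the submitters used is not given in the sources used here. Levels of different members are compared below as UMIs, which a 3′ kit does not scale with gene length, so an order of levels also reflects how much of each RNA could be primed and counted.

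A cell was kept if it had 500 or more genes, if mitochondrial genes held no more than 20% of its UMIs, and if it was not called a doublet. There were 2238 and 3175 kept cells in the hESC libraries and 2278 and 1916 in the blastoid libraries, with 13255214, 15913590, 15106405 and 17679447 UMIs in hESC 1, hESC 2, blastoid 3 and blastoid 4 and a median of 4996 to 8798 UMIs per cell. The hESC libraries shared 1317 cell barcodes and the blastoid libraries 1035, against 6 to 14 between groups. Of the shared barcodes, 26 were kept cells in hESC 1, 1311 in hESC 2, 6 in blastoid 3 and 1015 in blastoid 4, and results that change when they are left out are given both ways. The 8 pluripotency markers summed to 5096 and 5213 CPM (UMIs per 1000000 UMIs of the library) in the hESC libraries and to 651 and 715 in the blastoids, where the 9 mesenchyme markers summed to 2994 and 1895 CPM against 70.0 and 73.2 in hESC. The amnion and trophectoderm markers summed to 326 and 554 CPM in the blastoids, and 4 of these 6 markers were at 0 in each hESC library.

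Summed over all cells, the members' share of the UMIs overlapped between the groups. They made up 38.6 and 27.6 of every 10000 UMIs in hESC 1 and hESC 2, and 35.7 and 30.8 in blastoid 3 and blastoid 4. The 2 hESC libraries enclose the 2 blastoid values. HIST1H4C, an H4 gene at chr6:26103876-26104310 on the plus strand, dominated every library, with 1891, 1348, 2197 and 2101 CPM in that order. It held 49.0% and 48.8% of all member UMIs in hESC and 61.5% and 68.3% in blastoids.

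**Figure D1:**
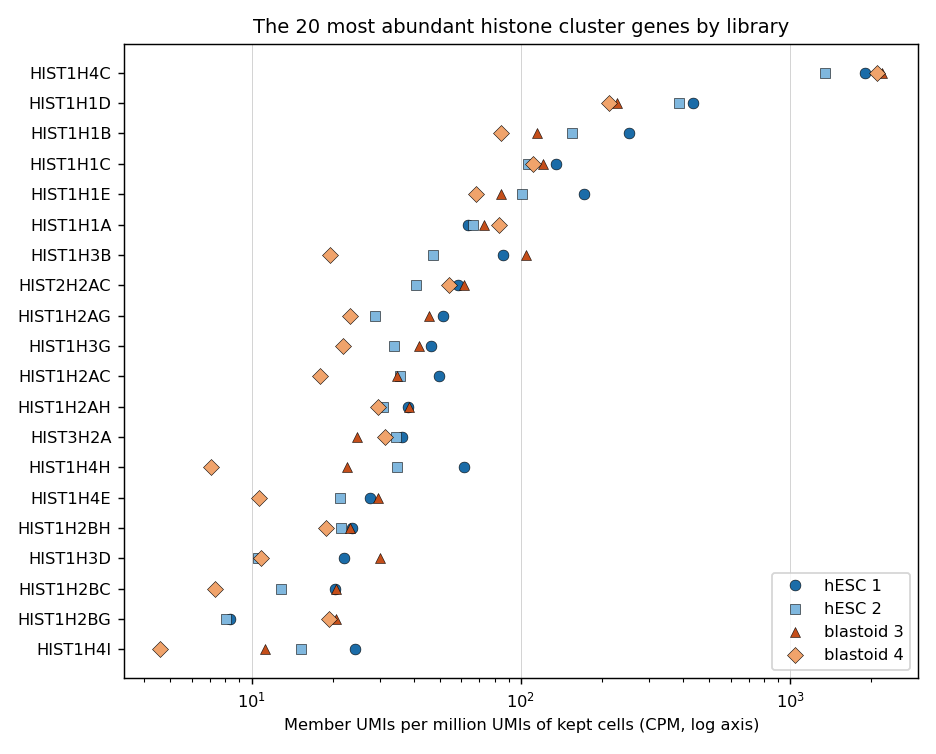
Level of the 20 most abundant members in the 4 libraries, in CPM on a log axis, 1 point per library. HIST1H4C lies between 1348 and 2197 CPM, far above HIST1H1D, whose hESC points (435 and 385) lie to the right of its blastoid points (227 and 213).

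The linker histones came next. HIST1H1D had 435 and 385 CPM in hESC 1 and 2 and 227 and 213 CPM in blastoid 3 and 4. HIST1H1B had 251, 154, 114 and 84.4 CPM in the same order, and HIST1H1E 171, 101, 84.6 and 67.9 CPM. For all 3 both hESC values lie above both blastoid values. HIST1H1C, with 135, 106, 121 and 111 CPM, overlapped between groups, and HIST1H1A, with 63.6, 66.2, 73.2 and 83.03 CPM, was a little higher in both blastoid libraries.

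Among the core histones after HIST1H4C, the libraries of a group often lay far apart. HIST1H3B, an H3 gene, had 86.0 and 47.3 CPM in hESC but 105 and 19.5 CPM in blastoid 3 and blastoid 4. HIST1H4E, an H4 gene, had 27.5, 21.2, 29.4 and 10.7 CPM, so that for both genes the blastoid libraries enclose the hESC values. HIST1H4H, another H4 gene, had 61.5, 34.6, 22.6 and 7.07 CPM, with both hESC values above both blastoid values. HIST2H2AC (58.3, 40.9, 61.4 and 53.9 CPM), HIST1H2AH (38.3, 30.7, 38.4 and 29.5 CPM) and HIST1H2BH (23.6, 21.5, 23.2 and 18.8 CPM) overlapped between groups. At the low end, HIST1H2AA, HIST1H2BB, HIST1H3C, HIST1H1T (the testis linker histone) and HIST2H4A had at most 12 UMIs in any library. HIST2H4A is a near-identical copy of HIST2H4B, so the split of reads between them is uncertain.

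Whether blastoids differ from the stem cells was tested first over all kept cells. The members called were mostly lower in blastoids, though the share called in either direction was not above that of all genes. Of 59 members tested, 23 were lower (22.8% of all 16332 genes tested were called lower) and 4 were higher (27.1% of all genes). In either direction 45.8% of the tested members were called, against 49.9% of all genes, so the share called was not above the background. The median log2 fold change was -0.63 over the members and 0.05 over all genes. By class, 7 of 12 tested H4 members were lower, as were 5 of 11 H3, 3 of 5 H1, 4 of 15 H2A and 4 of 16 H2B members (22.8% of all genes). The counts of H2A and H2B members lie near that share. The test was edgeR's quasi-likelihood test on UMIs summed per library, with Benjamini-Hochberg adjustment over all genes.

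Among the linker histones, HIST1H1D was lower with a log2 fold change of -1.03 (SE 0.14, edgeR adjusted p = 0.000863) and HIST1H1B with -1.17 (SE 0.25, adjusted p = 0.00669). HIST1H1C (-0.18) and HIST1H1A (0.14) did not pass. The largest falls were those of HIST1H2AL (-2.15, SE 0.35), HIST1H4J (-2.03, SE 0.40) and HIST1H4H (-1.86, SE 0.48). HIST1H2AL lies inside the HIST1H2BN gene on the same strand, so reads may be shared between the pair and both values are uncertain. HIST1H4C, at 0.27 (SE 0.20, edgeR adjusted p = 0.28), did not pass, and it turned to -0.15 without the shared barcodes.

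The 4 higher members are H2B genes, of 16 H2B members tested, a share near the 27.1% of all genes called higher. HIST1H2BG had 8.30 and 8.04 CPM in hESC and 20.5 and 19.5 CPM in blastoids, a log2 fold change of 1.16 (SE 0.15, edgeR adjusted p = 0.000898). HIST1H2BN rose from 6.49 and 4.59 to 17.9 and 17.0 CPM (1.53, SE 0.21), HIST3H2BB from 2.79 and 2.26 to 9.00 and 5.43 CPM (1.37, SE 0.30), and HIST2H2BE from 3.55 and 3.08 to 6.09 and 5.66 CPM (0.70, SE 0.23). The groups did not overlap for any of the 4, nor for any of the 23 lower members, so the lack of overlap adds nothing to the test. Of the members not called, 3 were higher and 4 lower in blastoids without overlap. The share of all genes without overlap is not given here, so these counts show nothing particular to the members. Without the shared barcodes none of the 4 passed (log2 fold changes 0.91, 1.09, 1.06 and 0.64, edgeR adjusted p = 0.0567, 0.0639, 0.0986 and 0.15 for HIST1H2BG, HIST1H2BN, HIST3H2BB and HIST2H2BE), while 20 members were lower. Leaving out hESC 1 left 9 members called in either direction, and leaving out blastoid 3 gave 46.

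Cycling state was called per cell from 43 S phase genes and 54 G2/M genes, none of them a member, after each cell had been thinned to 2000 UMIs. A cell took the state of its larger score, and a cell with neither score above 0 was called neither. Of the scored cells, 13.5% and 9.36% were neither in hESC 1 and 2, against 35.01% and 41.9% in blastoid 3 and 4. Cells scored S were 32.2% and 34.8% in hESC and 27.9% and 25.5% in blastoids. Of all 8050 scored cells, 1735 lay within 0.05 of a limit between states. The neither cells of the groups were not alike in the scoring genes themselves: the S phase genes held 26.6 and 30.8 of every 10000 UMIs in neither cells of hESC but 13.6 and 12.1 in those of blastoids, and the G2/M genes 39.1 and 41.2 against 19.9 and 18.3. The part of this in the results below was not tested.

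In cells that scored neither, the members were far lower in blastoids than in hESC. Member UMIs per 10000 were 31.0 and 23.0 in neither cells of hESC and 6.96 and 6.75 in those of blastoids, and the groups lay far apart. In S cells the values were 47.6, 34.5, 37.8 and 32.4 in library order, with overlap between groups. In G2/M cells they were 34.9 and 24.3 in hESC and 53.3 and 53.2 in blastoids. So S cells were the highest state in both hESC libraries, and G2/M cells in both blastoid libraries.

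**Figure D2:**
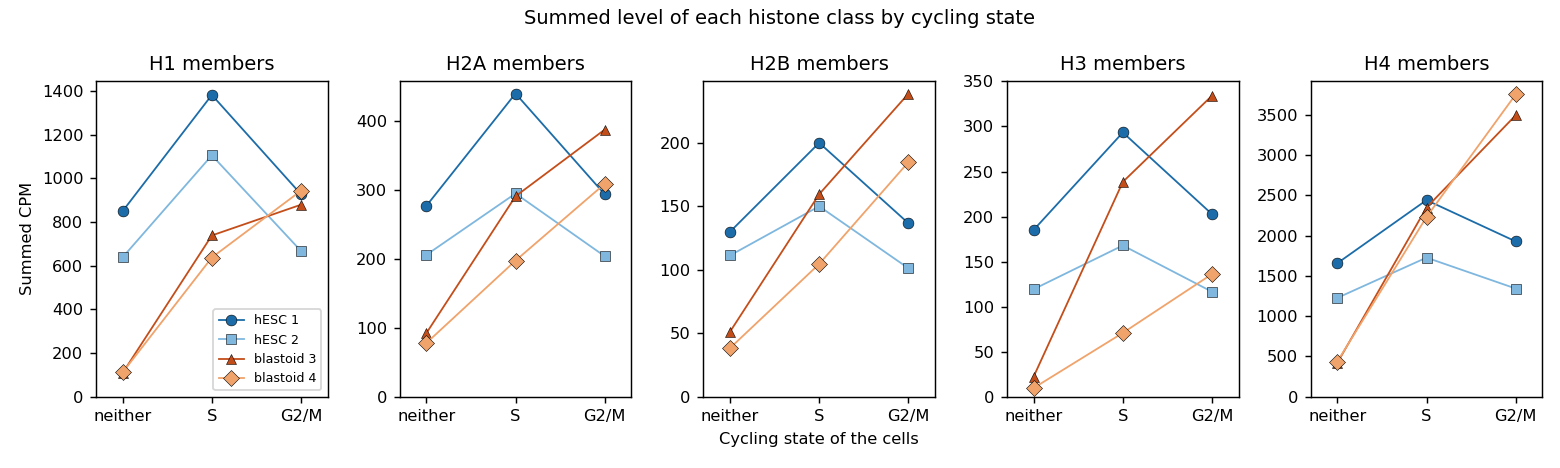
Summed CPM of the H1, H2A, H2B, H3 and H4 members in cells scored neither, S or G2/M, 1 line per library (linear axes from 0, a scale of its own in each panel). In every panel the hESC lines peak in S and the blastoid lines start lowest in neither cells and end highest in G2/M.

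HIST1H4C shows the pattern in full. In hESC 1 it had 1501 CPM in neither cells, 2210 in S and 1774 in G2/M cells, and in hESC 2 it had 1135, 1587 and 1252 CPM. In blastoid 3 it had 396, 2251 and 3353 CPM, and in blastoid 4 it had 425, 2190 and 3687 CPM. HIST1H1B, a linker histone, went from 191 and 112 CPM in neither cells of hESC to 8.18 and 9.46 CPM in those of blastoids, and HIST1H3B from 72.2 and 41.9 to 6.78 and 1.24 CPM. With each score taken on its own, the level of the 20 most abundant members was highest in cells positive only for S in 16 of 20 cases in hESC 1 and 17 in hESC 2. In blastoids 19 of the 20 in each library were highest in cells positive for both scores. HIST1H4C reached 3655 and 3926 CPM there, against 1278 and 1408 CPM in blastoid cells positive only for S.

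Single cells show the same levels. Among cells thinned to 2000 UMIs, the median number of member UMIs was 3 and 2 in neither cells of hESC 1 and 2 and 9 and 6 in their S cells. In both blastoid libraries it was 1 in neither cells and 9 in G2/M cells, while S cells had 4 and 3. HIST1H4C was found in 75.4% (exact 95% interval 69.5% to 80.7%) and 66.5% of neither cells of hESC and in 49.3% and 44.1% of those of blastoids. HIST1H1B was found in 23.8% and 13.1% of neither cells of hESC, and in 1.05% (0.46% to 2.06%) and 1.53% (0.79% to 2.66%) of those of blastoids. Unthinned, at median depths of 5081, 4670, 5158 and 7406 UMIs, the HIST1H1B shares were 40.2%, 26.2%, 3.68% and 4.84%. No cell class here is known to lack these genes, so the share that free RNA adds was not measured, and the intervals cover counting error only. Barcodes that were not kept had 48.0 and 35.4 member UMIs per 10000 in hESC and 36.3 and 32.1 in blastoids. Kept cells had 38.6, 27.6, 35.7 and 30.8 in library order. The first values mix every kind of dropped barcode, and their part in the levels was not tested. Over all scored cells any member was found in 93.9% and 89.0% of hESC and 83.05% and 76.6% of blastoid cells. Unthinned and over all kept cells, those under 2000 UMIs among them, the shares were 97.5% and 94.3% of hESC and 95.5% and 97.0% of blastoid cells. The groups then overlapped and the order of their means turned (95.9% and 96.3%). That change mixes depth with added cells: 2238 and 3175 hESC cells against 1803 and 2202 scored, and 2278 and 1916 blastoid cells against 2171 and 1874. An exact permutation test over 2 against 2 libraries cannot go below p = 0.33.

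Within the neither cells, blastoids against hESC gave 40 lower and 0 higher members of 44 tested. Of all 12621 genes 40.7% were called, 18.9% lower and 21.8% higher. By DESeq2 34 members were lower and 0 higher, and 0 were higher with edgeR at an unadjusted p under 0.05. The other 20 had too few UMIs for the test, and a member could enter it on its hESC counts alone. With no filter on low counts 45 were lower and 0 higher. All 5 tested H1, all 8 H3 and all 9 H4 members were lower. The log2 fold change was -1.82 for HIST1H4C (SE 0.20, edgeR adjusted p = 1.02e-05), -3.15 for HIST1H1D (SE 0.19) and -4.23 for HIST1H1B (SE 0.29). It was -1.55 (SE 0.21) for HIST1H1C, one of the members known to make polyadenylated mRNA. The 4 that did not pass were HIST3H2A (-0.33), HIST1H2BN (-0.28), HIST1H2BG (-0.02) and HIST2H2BE (0.02). The count was 31 without the shared barcodes, 20 without hESC 1, 26 with the score on unthinned cells and 16 with cells near the limits left out.

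Within S cells 31 of 56 tested members were lower in blastoids (19.5% of all genes were called lower) and 2 were higher (22.6% of all genes), HIST1H2BN (1.06) and HIST1H2BG (0.94). HIST1H4C, at 0.05 (SE 0.20, edgeR adjusted p = 0.852), did not pass, and HIST1H1D was lower (-1.23, SE 0.16). Within G2/M cells the balance turned: 14 of 56 were higher (27.1% of all genes) and 2 were lower (24.1% of all genes), with a member median of 0.16. HIST3H2BB (2.51, SE 0.33), HIST1H2BN (2.39, SE 0.21) and HIST1H2BG (1.81, SE 0.19) rose most. HIST1H4C rose by 1.08 (SE 0.19, edgeR adjusted p = 0.000379) and HIST1H1A by 1.02 (SE 0.17). HIST1H4J (-2.43) and HIST1H2AL (-1.10) were the 2 lower members. Without blastoid 3 the G2/M median turned to -0.16, with 14 higher and 18 lower members, and without the shared barcodes 9 were higher and 7 lower. In G2/M cells all of HIST1H2BG, HIST1H2BN, HIST3H2BB and HIST2H2BE passed also without the shared barcodes, but in S cells HIST1H2BN and HIST1H2BG did not (edgeR adjusted p = 0.0742 and 0.178). The S count was 19 by DESeq2 and 17 without hESC 1, and the G2/M count was 28 without blastoid 4.

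The difference between S and neither cells was then tested within each group, in a fit over 12 sums (4 libraries by 3 states) with the library as a block. In blastoids 51 of 56 tested members were higher in S cells (17.3% of all 14640 genes were called higher) and 1 was lower (18.0% of all genes), against 35.4% called in all. The members' median log2 fold change was 2.40. In hESC 13 of 56 were higher (1.26% of all genes) and 0 were lower (0.533%, or 1.79% called in all), with a median of 0.66. By DESeq2 8 were higher and 0 lower in hESC, and with edgeR at an unadjusted p under 0.05 28 were higher and 0 lower. Without hESC 1 the hESC count was 5, and without hESC 2 it was 7. Over both groups together 34 of 56 were higher in S than in neither cells (8.86% of all genes) and 34 in G2/M (9.14% of all genes), with 0 lower in either (7.82% and 9.39% of all genes). Those 2 counts rest on both blastoid libraries: with edgeR they were 0 and 0 without blastoid 3 (32 and 19 at an unadjusted p under 0.05) and 1 and 0 without blastoid 4 (43 and 25). DESeq2, over all libraries, gave 17 and 21. In this edgeR fit over both groups HIST1H4C did not pass for S (1.28, SE 0.42, edgeR adjusted p = 0.0556). It passed for G2/M (1.55, SE 0.44, edgeR adjusted p = 0.0285).

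In blastoids the S contrast was 2.40 for HIST1H4C (SE 0.04, edgeR adjusted p = 7.62e-48), 2.68 for HIST1H1D (SE 0.08) and 3.63 for HIST1H1B (SE 0.12). The estimates for HIST1H2BM (4.88, SE 0.77), HIST1H2AL (4.63, SE 0.59) and HIST1H3F (4.50, SE 0.52) were higher, but neither cells of blastoid 3 and 4 held only 0 and 1, 1 and 1, and 1 and 2 UMIs of these genes, so the sizes and their order are not resolved. In hESC the same contrast was 0.54 for HIST1H4C (SE 0.04, edgeR adjusted p = 4.17e-15), 0.77 for HIST1H1D (SE 0.07) and 0.78 for HIST1H1B (SE 0.09). All 5 tested H1 members passed in hESC, with 4 H2A, 1 H2B, 1 H3 and 2 H4 members. Each group had 2 libraries. The SEs and p-values of these contrasts, and of their difference below, therefore rest largely on spread that edgeR borrows from other genes.

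The interaction of state and group tests the difference of these contrasts. It was positive, meaning a larger S contrast in blastoids, for 31 of 56 members (5.9% of all genes) and negative for 1 (4.32% of all genes, 10.2% called in all). It was 1.86 for HIST1H4C (SE 0.05, edgeR adjusted p = 8.25e-34), 2.84 for HIST1H1B (SE 0.17) and 3.37 for HIST1H3B (SE 0.25). By class it passed for all 5 tested H1 members, 10 of 15 H2A, 6 of 16 H2B, 5 of 9 H3 and 5 of 11 H4 members. The negative one was HIST3H2A. How the neither cells were chosen mattered to the count: it was 14 in all with the score on unthinned cells and 13 with cells near the limits left out, and HIST3H2A remained the negative one in both. In blastoids the neither and S cells also differed in their mix of cell classes (below), and the part of that was not tested.

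**Figure D3:**
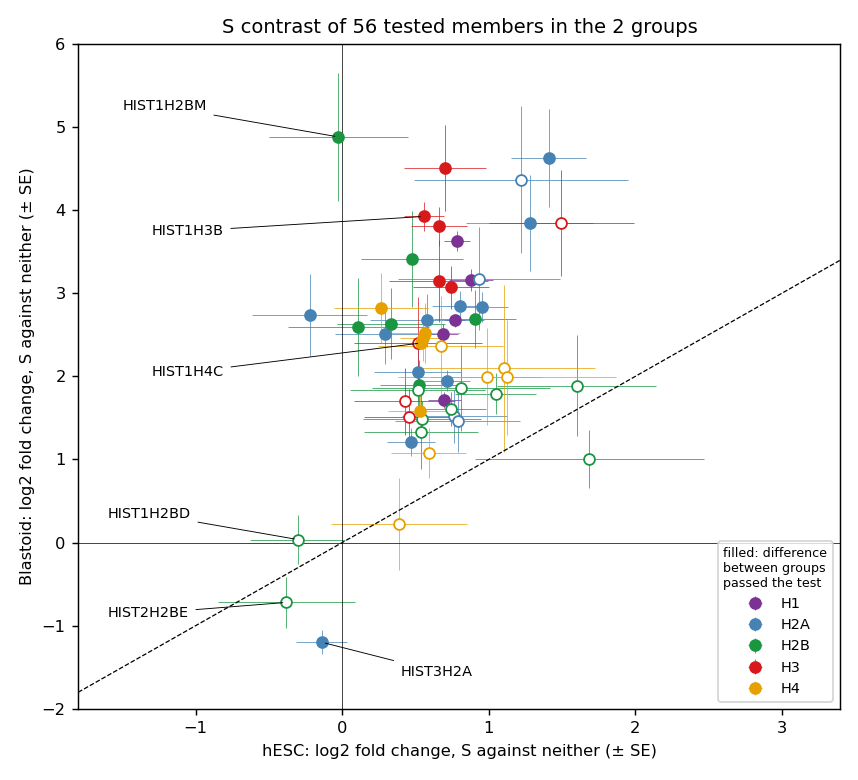
Log2 fold change of S against neither cells in hESC (x axis) and in blastoids (y axis) for the 56 tested members, with SE bars, coloured by histone class and filled where the difference between groups passed the test. Most points lie far above the dashed line of equality, and HIST3H2A (-0.14 and -1.20) lies below it.

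HIST3H2A, an H2A gene at chr1:228456979-228457873 on the minus strand, went against the other members. In neither cells it had 44.5 and 39.2 CPM in hESC and 35.3 and 37.8 CPM in blastoids. In S cells it kept 39.8 and 36.1 CPM in hESC but had 15.9 and 16.4 CPM in blastoids. In G2/M cells it had 31.3, 33.0, 23.0 and 35.2 CPM. It was thus lowest in S cells in both blastoid libraries, where its S contrast was -1.20 (SE 0.15, edgeR adjusted p = 9.13e-10), and the contrast differed from that of hESC by -1.06 (SE 0.23, adjusted p = 0.000526). Without the shared barcodes these HIST3H2A values were -1.31 and -1.16, both past the threshold. The neither and S cells of blastoids also differed in cell class, as assigned by markers below. Amnion and trophectoderm cells, where HIST3H2A was highest, were 67 and 133 of the neither cells and 14 and 25 of the S cells. Pluripotent cells, where it was lowest, were 17 and 23 against 65 and 66. The part of cell class in its S contrast was not tested.

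Its neighbour HIST3H2BB, an H2B gene, starts 233 bases away on the other strand and moved the other way. It had 2.19, 0, 3.50 and 2.48 CPM in neither cells, 3.47, 4.03, 9.16 and 3.49 CPM in S cells and 2.35, 1.22, 12.5 and 9.71 CPM in G2/M cells, in library order. Its S contrast in blastoids was 1.00 (SE 0.35, edgeR adjusted p = 0.0198). The hESC 1 value in neither cells rests on 3 UMIs. HIST2H2BE and HIST2H2AC form a like pair, 322 bases apart at their starts. HIST2H2AC rose in S cells of blastoids by 1.95 (SE 0.12) while HIST2H2BE, at -0.72 (SE 0.31, edgeR adjusted p = 0.0636), did not pass. HIST2H2BE had 5.10, 6.38, 7.24 and 5.58 CPM in neither cells and 4.81, 3.82, 3.38 and 4.36 CPM in S cells, from 7 to 36 UMIs per value.

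**Figure D4:**
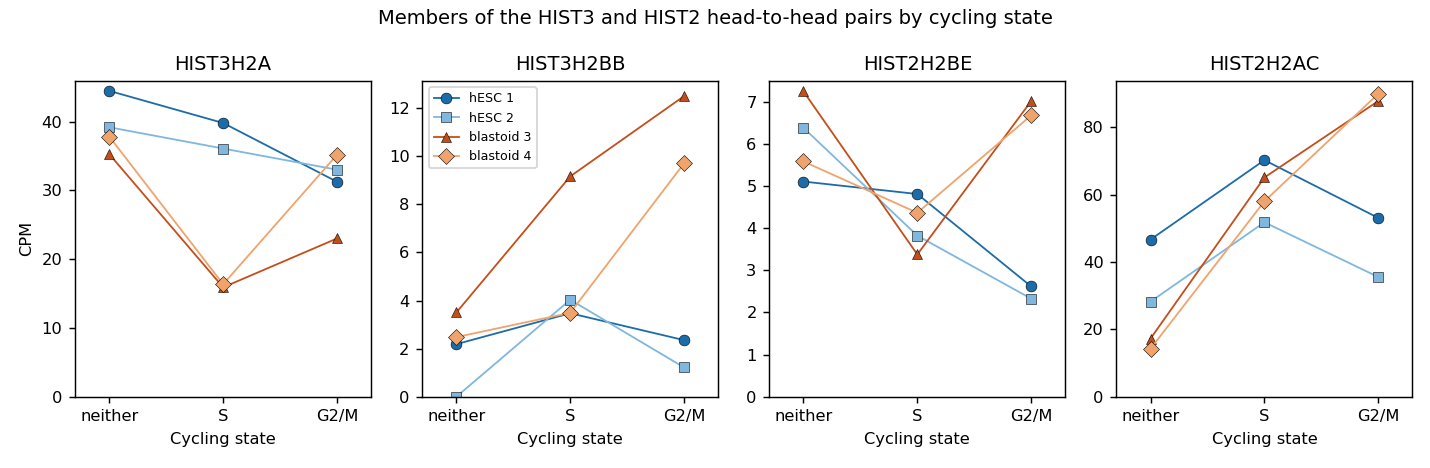
CPM of HIST3H2A, HIST3H2BB, HIST2H2BE and HIST2H2AC in neither, S and G2/M cells, 1 line per library. The blastoid lines of HIST3H2A dip in S to 15.9 and 16.4 CPM, while those of HIST2H2AC climb from 17.3 and 14.3 CPM in neither cells to 87.8 and 90.0 CPM in G2/M.

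There were 11 such head-to-head pairs of members with model starts 218 to 356 bases apart. HIST1H2BO was counted both with HIST1H2AM and with HIST1H3J. The models of these partners overlap on the same strand, so their pairs are not separate stretches. Where a model is coding-only, as that of HIST2H2AC, its start is that of the coding part. In the other 9, both members rose in S cells of blastoids. Between groups, over all cells, HIST1H2BG was higher (1.16) and its partner HIST1H2AE lower (-1.19, edgeR adjusted p = 0.0106), with 282 bases between their starts. The shared stretch of the HIST2 pair and that of the HIST3 pair are printed because their members differ in S cells though they start from the same stretch. They are RefSeq windows on GRCh38.p14 from 250 bases before to 50 after the start, with the octamer ATTTGCAT, the TATA motif TATAAA and the motif CCAAT in capitals on either strand.
HIST2H2AC, chr1:149886668-149886967, plus strand: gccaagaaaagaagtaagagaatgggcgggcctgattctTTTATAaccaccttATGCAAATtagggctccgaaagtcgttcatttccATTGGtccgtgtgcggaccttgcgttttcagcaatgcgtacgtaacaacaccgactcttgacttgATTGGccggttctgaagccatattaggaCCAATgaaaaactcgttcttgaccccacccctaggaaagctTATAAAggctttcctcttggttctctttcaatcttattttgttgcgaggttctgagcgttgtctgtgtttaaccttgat
HIST3H2A, chr1:228457824-228458123, minus strand: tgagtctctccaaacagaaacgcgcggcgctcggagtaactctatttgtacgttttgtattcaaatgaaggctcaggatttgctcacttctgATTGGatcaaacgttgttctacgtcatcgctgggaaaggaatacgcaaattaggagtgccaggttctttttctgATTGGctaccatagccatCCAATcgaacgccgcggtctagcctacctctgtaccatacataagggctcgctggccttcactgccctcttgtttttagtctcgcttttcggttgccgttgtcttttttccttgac

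RefSeq windows were found for 59 members. The octamer, a site known from H2A and H2B promoters, was in 24 of them against 1.80% of 27305 promoters of that length. It was in 11 of 15 H2A and 13 of 17 H2B windows and in 0 of 27 of the other classes. The TATA motif was in 38 of 59 against 11.95% of all promoters, and CCAAT in 51 of 59 against 35.7%. In S cells of blastoids, 21 of 22 tested members with the octamer were higher (median 2.28), as were 6 of 8 H2A and H2B members without it (median 1.49, with HIST3H2A lower). Of all tested members 51 of 56 were higher there, and of all genes 17.3%. By gene model, 24 of 25 tested members with a coding-only model were higher (median 2.68), against 17 of 19 with a model at least 100 bases past the loop (median 1.70, 1 lower). These groups differ in histone class and abundance too, and a match of letters is a description only.

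Within blastoids, levels were also read in cells assigned by fixed markers, with no test. A cell was assigned to the marker set that held at least 60% of the UMIs of the 3 sets, with at least 5 UMIs. Mesenchyme cells (1160 in blastoid 3 and 892 in blastoid 4) had 42.7 and 40.6 member UMIs per 10000. Pluripotent cells (156 and 141) had 35.3 and 27.0, and amnion and trophectoderm cells (106 and 189) had 18.4 and 16.5, the lowest in both libraries. With a stricter assignment (at least 10 UMIs and 80%) that class fell to 4 and 18 cells with 7.13 and 11.7 member UMIs per 10000, so the printed level rests on cells near the limits. Of the amnion and trophectoderm cells 67 and 133 were scored neither, against 17 and 23 of the pluripotent cells, so the classes differ in cycling state as well. In blastoid 3 and 4, 868 and 744 cells lay near the limits of assignment, and the classes are ranges of cells rather than types.

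HIST3H2A, in contrast to the members' sum, was highest in amnion and trophectoderm cells of both libraries. It had 67.8 and 65.8 CPM in amnion and trophectoderm cells (54 and 119 UMIs), 20.7 and 24.0 CPM in mesenchyme cells and 14.3 and 14.9 CPM in pluripotent cells of blastoids. HIST1H4C had 1063 and 1058, 2675 and 2831, and 2070 and 1789 CPM in the same classes. HIST1H1A, a linker histone, had 18.8 and 31.5 CPM in amnion and trophectoderm cells, 80.1 and 103 CPM in mesenchyme cells and 89.3 and 110 CPM in pluripotent cells. HIST2H2BE had 6.28 and 7.19 CPM in amnion and trophectoderm cells, 6.25 and 5.27 CPM in mesenchyme cells and 3.57 and 2.87 CPM in pluripotent cells. These rest on 5 and 13, 47 and 41, and 5 and 5 UMIs, so the order of the classes is not resolved.

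In hESC the members were highest in the cells with the fewest mitochondrial UMIs. Cells under 2% (149 in hESC 1 and 250 in hESC 2) had 76.6 and 42.2 member UMIs per 10000, cells at 2 to 5% had 24.3 and 20.3, cells at 5 to 10% had 34.1 and 24.8 and cells at 10 to 20% had 39.6 and 28.2. So the level did not fall steadily with the mitochondrial share, and the lowest value was in the class next to the highest. Blastoids had only 11 and 15 cells under 2%, too few for the comparison. Between 5 to 10% and 10 to 20% blastoid levels went from 37.1 to 29.2 and from 33.0 to 27.7 member UMIs per 10000, while those of hESC went up.

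**Figure D5:**
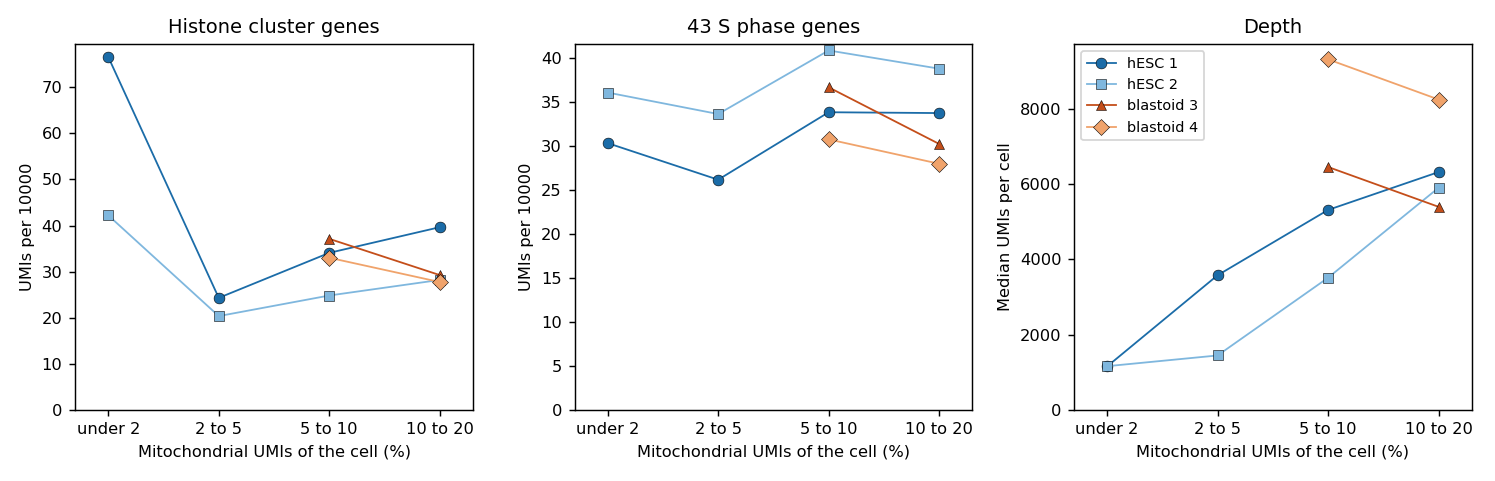
Member UMIs per 10000 (left), UMIs of the 43 S phase genes per 10000 (middle) and median UMIs per cell (right) by mitochondrial share of the cell, 1 line per library, for classes of at least 50 cells. The hESC points under 2% reach 76.6 and 42.2 for the members, while the S phase genes stay at 30.4 and 36.1 and depth is lowest, at 1154 and 1160 UMIs.

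Under 2% against 5 to 10%, 20 of 44 tested members were higher in hESC (7.35% of all 9993 genes were called higher) and 0 were lower (6.11% of all genes), and the members' median was 1.18 on the log2 scale. By DESeq2 10 were higher and 0 lower, and 0 were lower with edgeR at an unadjusted p under 0.05. The fit had 4 sums of 2 libraries and 1 residual degree of freedom. Its SEs and p-values therefore rest largely on spread that edgeR borrows from other genes. HIST1H4C had 3560 and 1863 CPM under 2% against 1625 and 1156 at 5 to 10%, a log2 fold change of 1.07 (SE 0.07, edgeR adjusted p = 3.96e-48). HIST1H1D had 699 and 619 against 384 and 345 CPM (1.02, SE 0.11), HIST1H1B 540 and 307 against 217 and 139 (1.39, SE 0.14) and HIST1H3B 228 and 107 against 82.6 and 37.5 (1.65, SE 0.22). Each was higher under 2% in both libraries. The largest estimates were those of HIST1H4D (2.32, SE 0.59), HIST1H4I (2.03, SE 0.38) and HIST1H3D (1.96, SE 0.43). Under 2% they rest on only 14 and 3, 16 and 15, and 17 and 7 UMIs in hESC 1 and 2, so the sizes and their order are not resolved. HIST3H2A also rose (0.97, SE 0.33), and HIST1H1A (0.63, adjusted p = 0.118 by edgeR) did not pass.

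Other measures moved with this class. Median depth was 1154 and 1160 UMIs per cell under 2% and 5319 and 3514 at 5 to 10%. MALAT1, a nuclear noncoding RNA, had 1679 and 2092 CPM under 2% against 6977 and 6711, and ribosomal protein genes held 32.6% and 30.1% of UMIs against 23.1% and 20.9%. S phase genes did not go up with the members: they held 30.4 and 36.1 of 10000 UMIs under 2% and 33.9 and 40.9 at 5 to 10%. Of the 42 S phase genes tested 0 were higher and 2 lower (7.35% and 6.11% of all genes). With cells thinned to 1000 UMIs 13 members were higher, among cells of fewer than 2000 UMIs 7 were, and against cells of 10 to 20% 18 were; these 3 settings were chosen after the result had been seen. Setting the lowest against the highest quartile of cells by mitochondrial share, in all 4 libraries, gave 0 called members with edgeR (5 higher and 0 lower at an unadjusted p under 0.05) and a median of 0.16. The part of these measures in the result was not tested further.

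Other histone genes were read beside the members. Of 6 members known to make polyadenylated mRNA, HIST1H1C (1.72), HIST1H2AC (1.21), HIST1H2BJ (2.64) and HIST1H2BK (2.60) were higher in S cells of blastoids, while HIST1H2BD (0.04) and HIST2H2BE (-0.72) did not pass. Of all tested members 51 of 56 were higher there, and of all genes 17.3%. The replacement histones lie outside the clusters and are made through the cell cycle. Of 10 tested, 6 were higher and 3 lower in S cells of blastoids (17.3% and 18.0% of all genes) with a median of 0.14, against 2.40 for the members. H2AFZ, the gene of H2A.Z, was higher by 1.02 (SE 0.04) and H2AFV by 0.40 (SE 0.06), while H3F3A (0.10) and H3F3B (-0.10) passed with small changes. Between groups H2AFZ was lower in blastoids (-0.89, SE 0.14), as was H3F3A (-0.57, SE 0.17), among 5 higher and 2 lower of 11 tested (27.1% and 22.8% of all genes). Under 2% against 5 to 10% mitochondrial share in hESC, 5 of 11 replacement histones were higher and 0 lower (7.35% and 6.11% of all genes), with H2AFV at 0.64 (SE 0.14), H2AFZ at 0.63 (SE 0.07), H3F3B at 0.51 (SE 0.09) and H3F3A at 0.48 (SE 0.06). Their median was 0.48, against 1.18 for the members.

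Of the genes that make or process histone mRNA, 5 of 16 were higher and 2 lower in blastoids over all cells, where 27.1% and 22.8% of all genes were, so the count was not far from the background. SLBP was higher by 1.10 (SE 0.14, edgeR adjusted p = 0.000698) and CASP8AP2 by 0.58 (SE 0.13). LSM10, part of the U7 particle that cuts histone pre-mRNA, was lower (-0.85, SE 0.13). In S cells of blastoids 8 of 13 were higher and 0 lower (17.3% and 18.0% of all genes). Among them were CCNE1 at 1.00 (SE 0.12) and NPAT, the activator of histone transcription, at 0.83 (SE 0.13). Of the histone chaperones, which carry histones to DNA, 10 of 14 were higher and 0 lower there (17.3% and 18.0% of all genes). SUPT16H was at 0.80 (SE 0.06) and RBBP4 at 0.67 (SE 0.06). Genes used for the cycling score were left out of these counts. Between groups over all cells 1 of 17 chaperones changed (49.9% of all genes): NASP, a carrier of H3 and H4, changed by -0.63 (SE 0.16).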

How the data were processed

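Each library came as a deposited matrix of raw UMI counts (genes by cell barcodes), made with Cell Ranger on GRCh38 per the submitters' processing notes; the version and annotation are not given in the sources used here. Members and gene lists were chosen with earlier results of these data known. Cells needed 500 or more genes and no more than 20% of UMIs from mitochondrial genes, and doublets were removed (Scrublet in scanpy 1.11.5, expected rate 6%, 73 of 9680 cells or 0.75%, and 0 of them in hESC 2). Cycling states came from scanpy's cell cycle score on cells thinned to 2000 UMIs; cells with fewer were left out of the states. Raw UMIs were summed per library, or per library and state or class, and tested with edgeR 4.0.16 (TMM, filterByExpr, quasi-likelihood, adjusted p under 0.05 over all genes), with the library as a block where a library gave several sums. On simulated counts with the real library sizes, changes of 2-fold were recovered at 54.7% and of 4-fold at 96% between groups (16125 genes), at 67% and 98% for S against neither (14145 genes) and at 4.7% and 58.7% for the mitochondrial classes (9627 genes). The simulation gave every gene the same spread, and gave S against neither the same change in both groups. The real contrasts differ between groups, so these shares do not give the recovery of the real fits. Named were the 20 members with the highest mean CPM and, per comparison, up to 10 called members with the largest change in each direction; of other lists up to 4 genes with the highest CPM. LSM10, NPAT, the pairs of HIST3H2A and HIST2H2BE, the members named by marker class and genes named as not passing were picked after values were seen. Alternatives were DESeq2 1.42.0, library size scaling, other filters and cells, and left-out replicates. Precision follows the UMIs given; intervals are exact binomial (Clopper-Pearson).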

Additional observations from a re-analysis of the deposited data

Results flagged for a closer look

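The S contrast differed between the groups, by the interaction of state and group in edgeR, for members of every class. It was larger in blastoids for 31 members and smaller for 1. The 10 largest positive differences on the log2 scale were those of HIST1H2BM (4.91), HIST1H3F (3.80), HIST1H3B (3.37), HIST1H2AL (3.22), HIST1H3G (3.14), HIST1H2AJ (2.96), HIST1H2BL (2.94), HIST1H1B (2.84), HIST1H2AB (2.56) and HIST2H4B (2.55). Neither cells of blastoid 3 and 4 held at most 3 UMIs of HIST1H2BM (0 and 1), HIST1H3F (1 and 2), HIST1H2AL (1 and 1), HIST1H2AB (1 and 2) and HIST1H2BL (1 and 3), so the order of these differences is not resolved. The negative one was HIST3H2A (-1.06). Each of them compares S with neither cells, and the neither cells of hESC held about 27 to 31 S phase UMIs per 10000 against 12 to 14 in blastoids. The S and neither cells of blastoids also differed in their mix of marker-assigned classes. The part of either in the difference was not tested. Dixon's rule for single libraries was not applied, since no group had 4 libraries.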

How the results depend on the processing

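No paired analysis was possible because the libraries carry the numbers 1 and 2 in one group and 3 and 4 in the other. Counts are members called. Leaving out 1 replicate at a time gave 9 to 46 over all cells (27 with every library), 20 to 37 in neither cells (40), 17 to 44 in S cells (33), 18 to 32 in G2/M cells (16), 0 to 40 for S against neither (34), 0 to 45 for G2/M against neither (34), 5 to 14 for S in hESC (13), 42 to 52 for S in blastoids (52) and 23 to 29 for the difference between groups (32). DESeq2 gave 19 in S cells, 17 for S against neither, 21 for G2/M against neither, 8 for S in hESC, 20 for the difference between groups and 10 for the mitochondrial classes. No filter gave 25 in G2/M cells. The score on unthinned cells gave 26 in neither cells, 52 for S against neither, 24 for S in hESC and 14 for the difference; leaving out cells near the limits gave 16 in neither cells, 53 for S against neither and 13 for the difference. The mitochondrial classes gave 0 by quartiles, 13 thinned to 1000 UMIs and 7 under 2000 UMIs. For the mitochondrial classes, thinning to 2000 UMIs, neither cells only, at least 1000 genes and leaving out an hESC replicate were not run for want of cells or libraries. Unthinned and over all kept cells, a member was found in 95.9% of hESC and 96.3% of blastoid cells (thinned and over scored cells, 91.4% and 79.8%). Stricter markers gave 9.43 member UMIs per 10000 in amnion and trophectoderm cells, from 4 and 18 cells (17.4 from 106 and 189 cells). Signs turned over all cells, between groups, for members that had not passed; leaving out 1 replicate gave -0.039 to 0.29 for HIST1H1A, -0.37 to 0.022 for HIST1H1C, -0.85 to 0.13 for HIST1H2AG, -0.33 to 0.028 for HIST1H2AH, -1.24 to 0.11 for HIST1H2BC, -1.83 to 0.44 for HIST1H3B (lower without blastoid 3, edgeR adjusted p = 3.09e-06, and higher without blastoid 4, adjusted p = 0.0415), -0.63 to 0.81 for HIST1H3D, -1.25 to 0.065 for HIST1H4E and -0.17 to 0.38 for HIST2H2AC. Without the shared barcodes HIST1H1A was -0.37, HIST1H3D -0.082, HIST1H4C -0.15 and HIST2H2AC -0.28, and with all barcodes HIST1H3D was -0.093 and HIST2H2AC -0.026. HIST1H2AL turned to -0.067 by mitochondrial quartiles. The causes were not tested. Scaling by library size alone moved the median of all genes to 0.18 between groups and to -0.26 for the mitochondrial classes, with 4 higher and 17 lower members and 16 higher members. Of all genes called, the higher share went from 53.6% to 66.2% in S cells and from 54.6% to 33.3% in the mitochondrial classes (76.6% by DESeq2), from 70.2% to 58.3% for S in hESC (38.5% by DESeq2), and from 57.8% to 72.7% by DESeq2 for the difference between groups.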
